A study of Mus musculus with 6 samples.

Results

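In sorted mouse beta cells, 9 genes of the retinoic acid system were followed across genotype, age and parity. They were the retinaldehyde dehydrogenases Aldh1a1, Aldh1a2, Aldh1a3 and Aldh1a7, the cellular retinoic acid binding proteins Crabp1 and Crabp2, and the retinoic acid receptors Rara, Rarb and Rarg. They were taken by symbol from the deposited expression table, where they make up 9 of 23087 genes that have 1 locus. Flow cytometry had isolated these cells, which make the insulin of the islet, from females of a mixed 129J-C57BL/6 strain kept on standard chow. WT mice were compared with IKO mice, in which a Cre recombinase under the rat insulin promoter (RIP-Cre) had removed the floxed gene of the transcription factor FoxO1. Each genotype was sampled when nulliparous at 3 months, when nulliparous at 12 months, and at 12 months after 3 pregnancies. The multiparous WT library is labelled NGT and the multiparous IKO library DM, so what these labels mark cannot be told apart from parity within a genotype or from genotype between the multiparous libraries. Each of the 6 groups has 1 library, and the number of animals behind a library is not given in the sources used here. The labels do not say whether WT mice carried the Cre transgene or the floxed allele, nor how beta cells were marked for sorting.

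Vitamin A reaches cells as retinol, is oxidised to retinaldehyde by retinol dehydrogenases, and is then oxidised irreversibly to retinoic acid by enzymes of the ALDH1A family. Retinoic acid is carried by the CRABP proteins, cleared by CYP26 enzymes, and read by RAR receptors, which bind DNA together with RXR partners. In the pancreas this pathway takes part in endocrine development, and in mouse islets Aldh1a3 is known as a marker of beta cells that lose their mature identity.

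The deposited values are FPKM, fragments per kilobase of transcript for a fixed number of mapped fragments, so levels may be compared between genes. The 12-month nulliparous WT library stood apart, with correlations across genes of 0.955 to 0.961 (log2 scale) with the other 5 libraries. Foxo1 was 13.6 to 18.6 times lower in the IKO library than in the WT library of the same stage. The defining beta cell genes Ins1, Ins2 and Iapp had no value above 0 in any library, and the sum of the listed beta cell markers, which include Mafa, Pdx1 and Nkx6-1, was 988 to 1383 FPKM. A bulk library cannot tell a change in the share of cells of a type from a change in RNA per cell.

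Short reads can be assigned to one Aldh1a gene only where the copies differ, so a close stretch of the coding sequences is shown first. It is the 60-base window in which Aldh1a3 and Aldh1a1 differ least, read from GENCODE vM21 transcripts, 5′ to 3′, with capitals marking bases unlike Aldh1a3.

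Aldh1a3: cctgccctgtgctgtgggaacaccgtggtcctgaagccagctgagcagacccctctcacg

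Aldh1a1: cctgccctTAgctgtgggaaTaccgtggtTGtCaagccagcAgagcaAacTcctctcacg

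Aldh1a7: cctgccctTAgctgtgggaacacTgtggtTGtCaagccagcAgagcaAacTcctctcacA

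Aldh1a2: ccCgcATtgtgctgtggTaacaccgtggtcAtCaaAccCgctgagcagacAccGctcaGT

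In that window Aldh1a3 differed from Aldh1a1 at 9 of 60 bases, from Aldh1a7 at 10 and from Aldh1a2 at 12. The window was chosen for Aldh1a1 and need not be the closest for Aldh1a7 or Aldh1a2. The longest run of identical bases that Aldh1a3 shared was 17 with Aldh1a1, 26 with Aldh1a2 and 24 with Aldh1a7. Over the whole coding sequence its identity was 68.6% with Aldh1a1, 69.6% with Aldh1a2 and 68.7% with Aldh1a7. None of the 3344 windows of 100 bases, the read length, in the Aldh1a3 transcript was found in another of these transcripts with 2 or fewer mismatches. Aldh1a1 and Aldh1a7 were closer, with 91.6% identity and 167 of 1954 windows of the Aldh1a1 transcript (8.55%) shared. Their values are therefore uncertain where reads could be split between them. The pair also lie beside each other on chromosome 19, with 49.5 kb between chr19:20601982-20643462 (Aldh1a1, plus strand) and chr19:20692953-20727556 (Aldh1a7, minus strand). All positions are in mm10 as the deposited table gives them, counted from 1.

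Aldh1a3 (chr7:66390893-66427477, minus strand) was the most abundant Aldh1a gene in every library and the only 1 of the 9 genes whose IKO libraries all lay above the WT libraries. In WT libraries it was at 0.624 FPKM at 3 months, 0.776 FPKM at 12 months nulliparous and 0.348 FPKM at 12 months multiparous. In IKO libraries of the same stages it was at 2.18, 3.31 and 5.70 FPKM. The lowest IKO value was thus above the highest WT value. Among 11131 genes that averaged 1 FPKM or more over the libraries, 365 (3.28%) also had all IKO libraries above all WT libraries. Aldh1a3 reached that mean only through its IKO libraries.

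**Figure D1:**
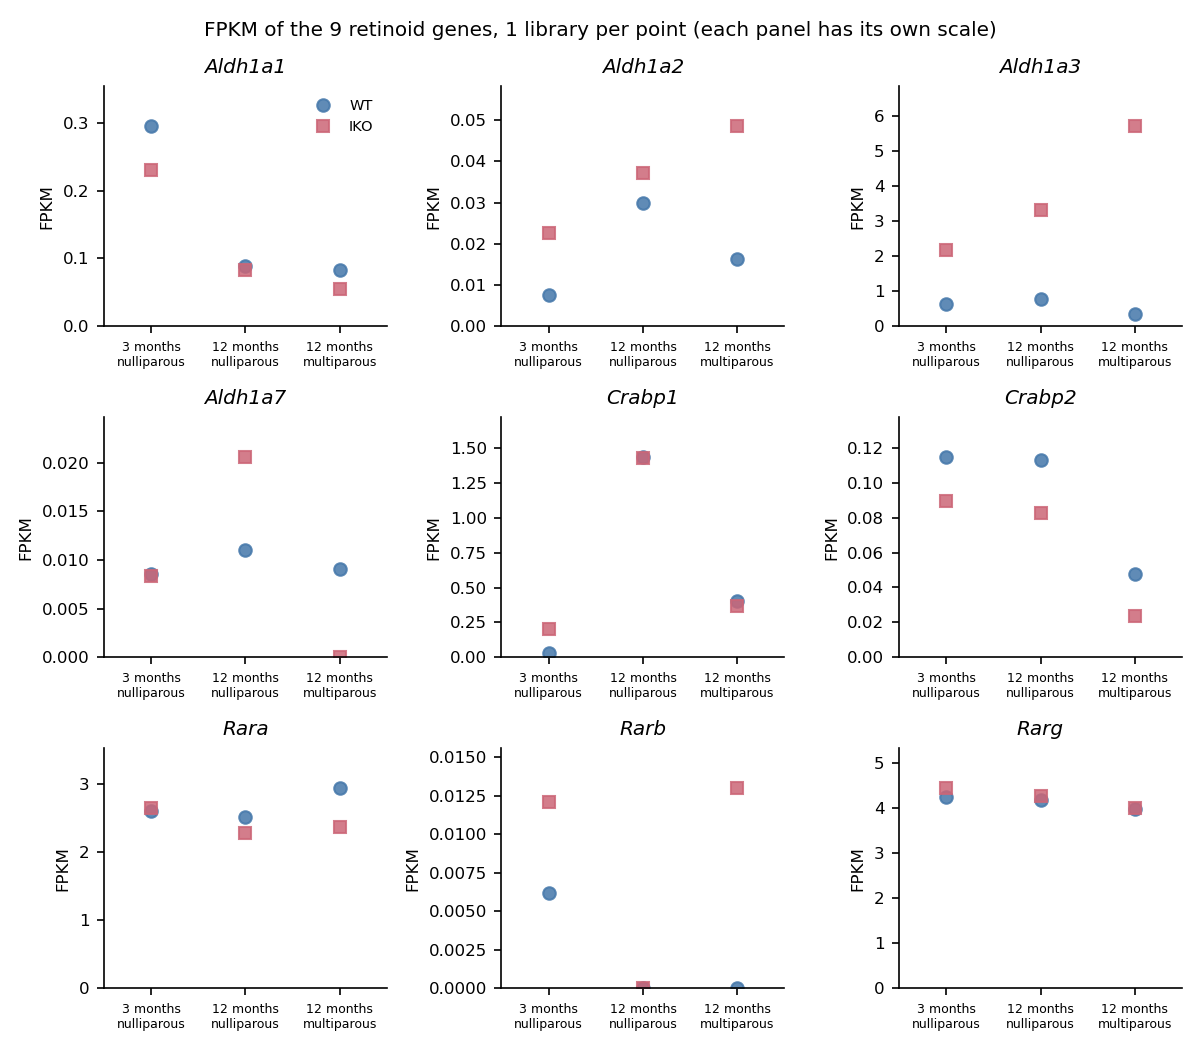
FPKM (vertical axis, a separate scale for each gene) of the 9 genes at the 3 stages, 1 point for each library, with circles for WT and squares for IKO. Aldh1a3 is higher in IKO at each stage (2.18 to 5.70 against 0.348 to 0.776 FPKM), Crabp1 peaks in both 12-month nulliparous libraries, and Rara and Rarg stay within narrow ranges.

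The FPKM ratio of IKO to WT for Aldh1a3 was 3.49 at 3 months, 4.27 at 12 months nulliparous and 16.4 at 12 months multiparous. FPKM values of genes with few fragments step in whole multiples of the value of 1 fragment. These steps gave the relative depth of the libraries and an estimate of the fragments behind low values. For Aldh1a3, Rara and Rarg the value of 1 fragment was instead taken from transcript length, so their fragments and counting intervals are approximate. For Aldh1a3 the WT and IKO libraries had about 127 and 453 at the youngest stage, 122 and 561 in the older nulliparous mice, and 67 and 1105 after pregnancies. The 95% exact counting intervals of the ratios were 2.87 to 4.30, 3.50 to 5.23 and 12.8 to 21.3. The multiparous interval lay wholly above the other intervals. These intervals cover counting error only and say nothing of the spread between animals, which 1 library per group cannot give.

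**Figure D2:**
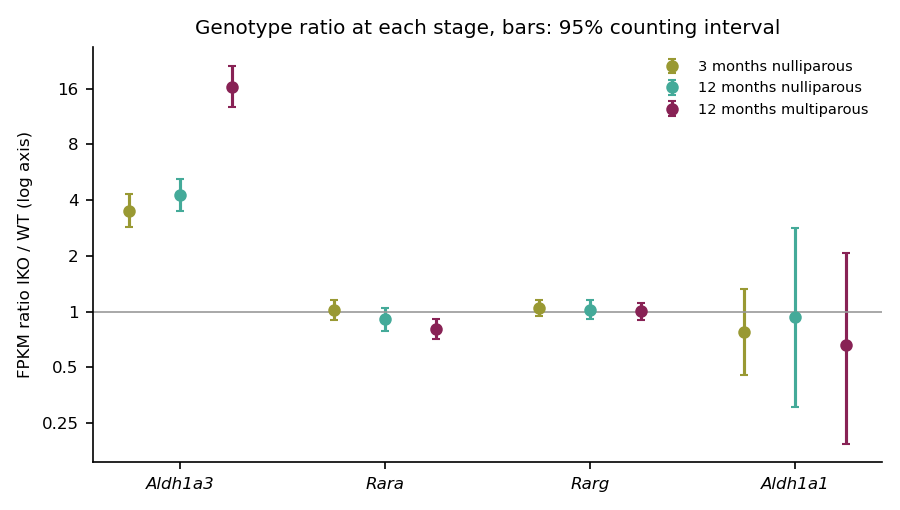
FPKM ratio of IKO to WT (log axis) for 4 genes at the 3 stages, with bars for the 95% counting interval of estimated fragments, 1 library in each group. Aldh1a3 lies at 3.49, 4.27 and 16.4, while Rarg lies at 1.0 to 1.04 and Rara at 0.805 to 1.02.

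On the scale of log2(FPKM + 1), which understates changes of low values, the IKO to WT difference was 0.97 at 3 months, 1.28 at 12 months nulliparous and 2.31 multiparous. Among genes with at least 1 FPKM in 1 library of the pair, a difference of at least 1 (2-fold on this scale) was passed in the IKO direction by 0.0447% at 3 months, 0.621% at 12 months nulliparous and 0.0984% multiparous. Aldh1a3 was past it at both 12-month stages. In all 3 pairs it met the 1 FPKM floor only through its IKO library, so its place among the compared genes is partly set by the floor. With at least 5 FPKM asked of 1 library the shares were 0.0493%, 0.647% and 0.0980%, and Aldh1a3 was then eligible, and past 2-fold, only in the multiparous pair. The 3-month and multiparous pairs do not use the library that stood apart.

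**Figure D3:**
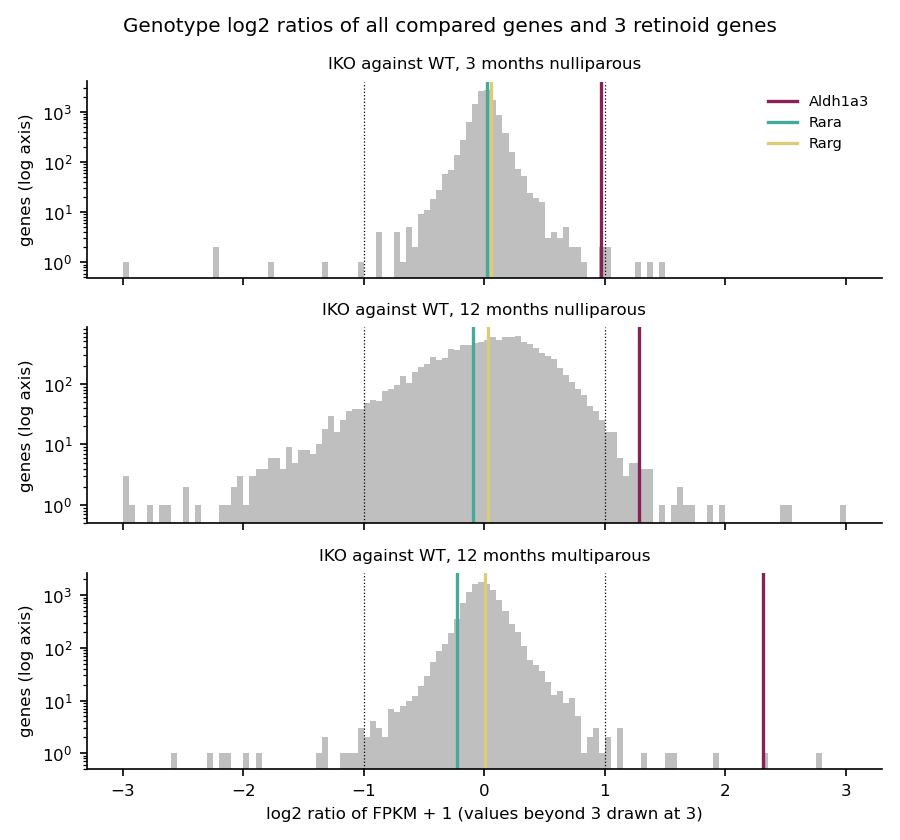
Histogram of the log2 ratio of FPKM + 1 (IKO to WT) of all compared genes at each stage (gene number on a log axis), with coloured lines for Aldh1a3, Rara and Rarg and dotted lines at a 2-fold difference. Aldh1a3 lies at 0.97, 1.28 and 2.31, and the histogram is widest at 12 months nulliparous, where the WT library stood apart.

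Over the 3 stages together, limma on log2(FPKM + 1) gave a genotype difference of 1.52 (SE 0.28) for Aldh1a3, higher in IKO at 3 of 3 stages. Its adjusted p was 0.923 by limma with Benjamini-Hochberg adjustment (unadjusted p = 0.00344), so it did not pass 0.05. With no filter on low values the unadjusted p was 0.00882, the 81st smallest of 18103 genes, with an adjusted p of 0.921. In the filtered fit no gene passed for genotype (0%), Foxo1 included, so the fit did not call even the gene removed in IKO. Of its 11131 genes, 180 had an unadjusted p below 0.05. Without the 3-month WT or the 3-month IKO library, with 1 residual degree of freedom, the difference was 1.80 and passed. Either fit takes this difference from the 12-month libraries alone, so the fits are not separate results. The model with all libraries has 2 residual degrees of freedom and counts unequal genotype differences across stages as error. An exact two-sided permutation test of 3 IKO against 3 WT libraries, with stages not matched, gave p = 0.1, the smallest value such a test allows. Any gene whose genotypes do not overlap gets this value, so it adds nothing to the non-overlap. Summed markers of 8 other cell types (alpha, delta, PP, acinar, duct, endothelial, mesenchymal and immune cells) overlapped between the pooled genotypes for all 8 lists. Stage by stage, the sums were lower in IKO at 3 of 3 stages for 3 lists. For delta cell markers they were 204 and 200 FPKM (WT and IKO) at 3 months, 566 and 131 FPKM in the 12-month nulliparous pair and 183 and 106 FPKM in the multiparous pair. Endothelial sums were 1.74 and 1.49, 7.19 and 2.36, and 2.09 and 1.51 FPKM in the same order, and mesenchymal sums 1.05 and 1.02, 4.89 and 1.91, and 2.14 and 0.724 FPKM. Single genes did not all follow these sums at 3 months. Sst (189 and 187 FPKM) made up most of the delta cell sum, while Hhex and Ghsr were higher in IKO. Of the mesenchymal genes only Col1a1 and Sparc were lower in IKO at 3 months, and of the endothelial genes Emcn was higher. The part of these lists in the result was not tested.

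Within a genotype, Aldh1a3 followed a different order by stage. In IKO it was 1.52 times higher at 12 than at 3 months nulliparous (counting interval 1.34 to 1.72), and 1.72 times higher in the multiparous than in the nulliparous 12-month library (1.55 to 1.91). In WT the multiparous library had 0.448 times the nulliparous level (0.328 to 0.609), while the age ratio of 1.24 (0.965 to 1.61) was not distinguishable from 1 at this depth. The WT ratios both rest on the library that stood apart. In limma neither term was called for Aldh1a3, with an age difference of 0.28 (SE 0.34, adjusted p = 0.783) and a parity difference of 0.12 (SE 0.34, adjusted p = 0.883). Each of these contrasts called 3 genes (0.0270% for age and 0.0270% for parity), none of them Aldh1a3, Rara or Rarg, the 3 of the 9 genes that were in this fit.

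Aldh1a3 supplied most of the Aldh1a transcripts. Its share of the summed FPKM of the 4 Aldh1a genes was 66.7% for WT, beside 89.3% for IKO, at 3 months. In the 12-month nulliparous libraries it was 85.6% and 95.9%, and in the multiparous libraries 76.3% and 98.2%. The share was higher in IKO at each stage. The whole aldehyde dehydrogenase superfamily, whose other members clear many kinds of aldehyde, was far more abundant. Among 20 Aldh genes measured, Aldh1a3 ranked 14th in each WT library and 10th or 11th in IKO, and it made up 0.150% to 0.402% of their summed FPKM in WT and 1.0% to 2.81% in IKO.

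The other Aldh1a genes were low. Aldh1a1, the retinaldehyde dehydrogenase used widely in adult tissues, had 0.295 FPKM in WT at 3 months, beside 0.230 FPKM in IKO. The 12-month nulliparous libraries had 0.0895 FPKM (WT) and 0.0836 FPKM (IKO), and the multiparous ones 0.0828 and 0.0547 FPKM. All 12-month libraries were below both 3-month libraries, as were 9.04% of 15098 genes above 0 in all libraries. The ratio of 12 to 3 months nulliparous was 0.303 in WT (counting interval 0.122 to 0.673, from 8 and 34 fragments) and 0.364 in IKO (0.143 to 0.823, from 8 and 27 fragments). The summed immune markers, 10 of 11 listed genes measured, were also lower at 12 months (15.1 to 19.0 FPKM) than at 3 months (20.4 to 21.7 FPKM). Cd68 and C1qa made up most of that sum, and the other immune genes did not go in a common direction. Emr1 was near 0 throughout (0.00549 to 0.00679 FPKM at 12 months, 0.0156 and 0.0102 FPKM at 3 months). No order between the ages can be read from such values. Cd52, Tyrobp, C1qb and Csf1r overlapped between the ages. Ptprc, the pan-leukocyte marker, was at 0.0477 and 0.0637 FPKM at 3 months and at 0.101 to 0.234 FPKM at 12 months, and Lyz2 and Laptm5 were likewise higher in all 12-month libraries. The part of the immune list in the result was not tested.

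Aldh1a2 (chr9:71215789-71296243, plus strand), the main retinoic acid producing enzyme of the early embryo, was at 0.00770 to 0.0486 FPKM, from 1 to 6 fragments a library. IKO values were higher at 3 of 3 stages, yet each counting interval held 1, so no difference was detectable at this depth. A pseudogene, Gm48124, overlaps it on the opposite strand. Aldh1a7, a rodent copy of Aldh1a1, was at 0 to 0.0206 FPKM, from 0 to 2 fragments. No order between libraries can be read from such values.

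Crabp1 (chr9:54764808-54773109, plus strand), a binding protein that sequesters retinoic acid in the cytoplasm, differed between stages, with WT and IKO values close to each other at 12 months. At 12 months nulliparous it was at 1.44 FPKM in WT and 1.43 FPKM in IKO. The multiparous libraries had 0.402 and 0.369 FPKM, and the 3-month libraries 0.0298 and 0.204 FPKM. All 4 libraries of 12 months were above both of 3 months, as were 8.85% of the 15098 genes. The 3-month values rest on 1 fragment (WT) and 7 fragments (IKO), the 12-month nulliparous ones on 37 and 40, and the multiparous ones on 13 and 12. Summed acinar markers were also highest in the 12-month nulliparous libraries (70.0 FPKM in WT, 24.2 FPKM in IKO, 3.06 to 12.4 FPKM elsewhere). Unlike Crabp1, they were lower in the multiparous libraries than at 3 months. Endothelial sums likewise peaked in both 12-month nulliparous libraries (7.19 and 2.36 FPKM), and those of the other cell types did not. The part of these lists in the Crabp1 result was not tested.

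**Figure D4:**
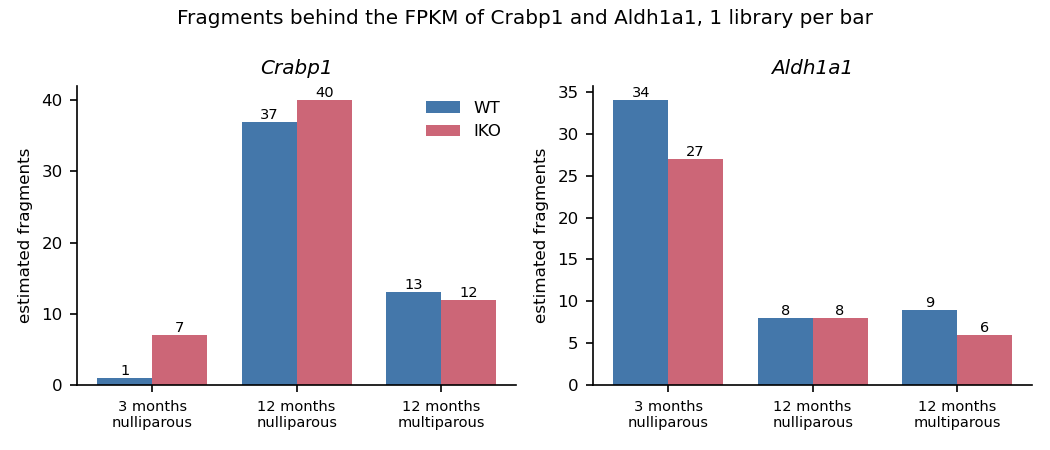
Estimated fragments (vertical axis, starting at 0) behind the FPKM of Crabp1 and Aldh1a1, 1 bar for each library, WT and IKO side by side at the 3 stages. Crabp1 has 37 and 40 fragments at 12 months nulliparous and Aldh1a1 has 34 and 27 at 3 months, each in both genotypes.

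The Crabp1 ratio of 12 to 3 months nulliparous was 48.2 in WT (counting interval 8.11 to 1949, against 1 fragment) and 6.99 in IKO (3.11 to 18.6). On the log2(FPKM + 1) scale these were 1.24 and 1.01. A 2-fold difference in that direction was passed by 2.88% of genes in WT and 0.178% in IKO, at a floor of 1 FPKM that Crabp1 met only through its 12-month libraries. Between 12-month libraries, multiparous values were 0.280 times the nulliparous ones in WT (0.140 to 0.552) and 0.259 times in IKO (0.125 to 0.510). None of the 9 genes passed 2-fold on the log2(FPKM + 1) scale with parity, as 4.27% of genes in WT and 0.624% in IKO did in either direction. The genotype ratio was 0.993 at 12 months nulliparous (0.625 to 1.61) and 0.919 multiparous (0.382 to 2.18). The IKO age and parity pairs do not use the WT library that stood apart, and their ratios lay on the same side of 1 as those in WT.

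Crabp1 had a mean under 1 FPKM and so was not in the limma fit. In a fit with no filter, over 18103 genes, its age difference was 1.13 (SE 0.08), with limma's adjusted p = 0.358, and its parity difference was -0.81, with adjusted p = 0.269. Neither passed. Crabp2 (chr3:87948693-87953372, plus strand), which delivers retinoic acid to the receptors, was at 0.0238 to 0.115 FPKM from 1 to 5 fragments. It was lower in IKO at 3 of 3 stages, but each counting interval held 1.

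The receptors were steadier. Rarg (chr15:102234940-102257483, minus strand), the most abundant of the 9 genes in 5 of 6 libraries, had 4.25, 4.17 and 3.99 FPKM in the WT libraries by stage and 4.44, 4.27 and 3.99 FPKM in the IKO libraries. Its genotype ratios of 1.04, 1.02 and 1.0 all had counting intervals that held 1, with bounds from 0.897 to 1.16. In the multiparous IKO library Aldh1a3 was above it. Rara (chr11:98937696-98974942, plus strand) had 2.59, 2.51 and 2.94 FPKM in the WT libraries and 2.64, 2.28 and 2.37 FPKM in the IKO libraries. Rarg was 1.36 to 1.87 times Rara in all 6 libraries.

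The Rara genotype ratio was 1.02 at 3 months (0.900 to 1.15), 0.910 at 12 months nulliparous (0.788 to 1.05) and 0.805 in the multiparous libraries (0.710 to 0.914). The multiparous interval lay below 1, and its log2 ratio was the 716th lowest of 11184 genes in that pair. In limma the genotype difference was -0.10 (SE 0.09) for Rara and 0.03 for Rarg, and neither passed. A small nuclear RNA gene, Gm22061, overlaps Rara on the same strand.

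Rarb (chr14:16430840-16575210, minus strand), a receptor gene that retinoic acid itself switches on in many cells, was at 0 to 0.0130 FPKM. It had 1 and 2 fragments in the 3-month WT and IKO libraries, 2 in the multiparous IKO library, and was listed at 0 in the other 3. Reads of the gene Top2b, which overlaps it on the opposite strand, could add to such a value, since the sources used here do not say whether counting used strand. The Rarb promoter holds the textbook response element of this pathway, shown here because the gene it controls was at or near 0 in these libraries. It is a stretch of the RefSeq promoter (GRCm38.p6, chr14:16575492-16575558, minus strand), 5′ to 3′, with the element, a direct repeat that includes the base before the motif, in capitals at bases -53 to -37 from the start.

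Rarb promoter: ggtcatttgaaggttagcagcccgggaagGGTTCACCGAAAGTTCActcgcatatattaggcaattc

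The motif searched was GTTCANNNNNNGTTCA on both strands, in promoter windows with 250 bases before the start and 50 after it. Of 32851 such RefSeq windows, 25 (0.0761%) held it. With each part of the repeat written as GTTCA or GGTCA, 81 windows (0.247%) held a match. Of the 9 genes, 7 had an entry, and Rarb was the only 1 of these with a match. Aldh1a3 and Crabp2 had no entry and so were not searched. The motif has the repeated parts of the Rarb element itself, so the Rarb match was set in advance. A match in a window describes letters and not binding.

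The rest of the pathway was described through 7 lists of genes for vitamin A transport, ester storage, oxidoreductases, retinoic acid breakdown, RAR partners, response genes and other aldehyde dehydrogenases. Of 75 measured genes that are not among the 9, 34 could be compared at 5 FPKM, and 4 of these (11.8%) were past 2-fold in at least 1 of 7 library pairs, against 563 of 8542 genes (6.59%). All 4 were past it only in pairs that use the 12-month nulliparous WT library. Without those pairs the counts were 0 and 68.

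Rbp4, the carrier of retinol in blood, had 14.3, 16.4 and 11.0 FPKM in WT libraries by stage and 12.3, 7.45 and 6.01 FPKM in IKO libraries, and was past 2-fold lower in IKO at 12 months nulliparous. Rbp4 is also on the delta cell marker list, whose sum at that stage was 566 FPKM in WT and 131 FPKM in IKO. That list's part in the result was not tested. Aldh1l2, the mitochondrial folate dehydrogenase, was past 2-fold higher in IKO at the same stage, with 33.4 FPKM in WT and 69.9 FPKM in IKO. In WT, multiparous against nulliparous, Adh1, an alcohol dehydrogenase that also oxidises retinol, was lower (39.0 against 83.5 FPKM). Fabp5, which carries retinoic acid towards PPARD, was higher there (6.02 against 0.948 FPKM).

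The gene with the highest mean over the libraries was taken from each list. Ttr, the blood partner of RBP4, was at 79.3 to 176 FPKM, and is also on the alpha cell marker list. Dhrs7, a short-chain dehydrogenase, was at 74.7 to 89.2 FPKM and Pnpla2, a lipase of lipid droplets, at 12.3 to 13.8 FPKM. All IKO libraries were above all WT libraries for Pnpla2 too (13.6 to 13.8 against 12.3 to 13.0 FPKM), as for 3.28% of genes that averaged 1 FPKM or more. Tgm2, a response gene with a lower mean that was singled out after its values were seen, was also apart. It had 0.990 to 1.08 FPKM in IKO and 0.736 to 0.932 FPKM in WT. Ncor1, a corepressor of nuclear receptors, was at 22.2 to 26.0 FPKM, and Nrip1, a ligand-dependent corepressor, had the highest mean of the response genes (1.55 to 3.35 FPKM). Aldh18a1, an enzyme of proline synthesis, had the highest mean of the other aldehyde dehydrogenases (39.2 to 64.7 FPKM), though Aldh1l2 was above it in the 12-month nulliparous IKO and the multiparous WT libraries.

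Clearance enzymes and receptor partners were singled out after their values were seen. Cyp26a1, the retinoic acid hydroxylase most readily switched on by its substrate, was at 0 to 0.0320 FPKM, Cyp26b1 at 0.0892 to 0.120 FPKM, and Cyp26c1 was listed at 0 throughout. Rxra was at 6.86 to 9.11 FPKM and Rxrb at 11.6 to 16.4 FPKM, while Rxrg was listed at 0.

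**Figure D5:**
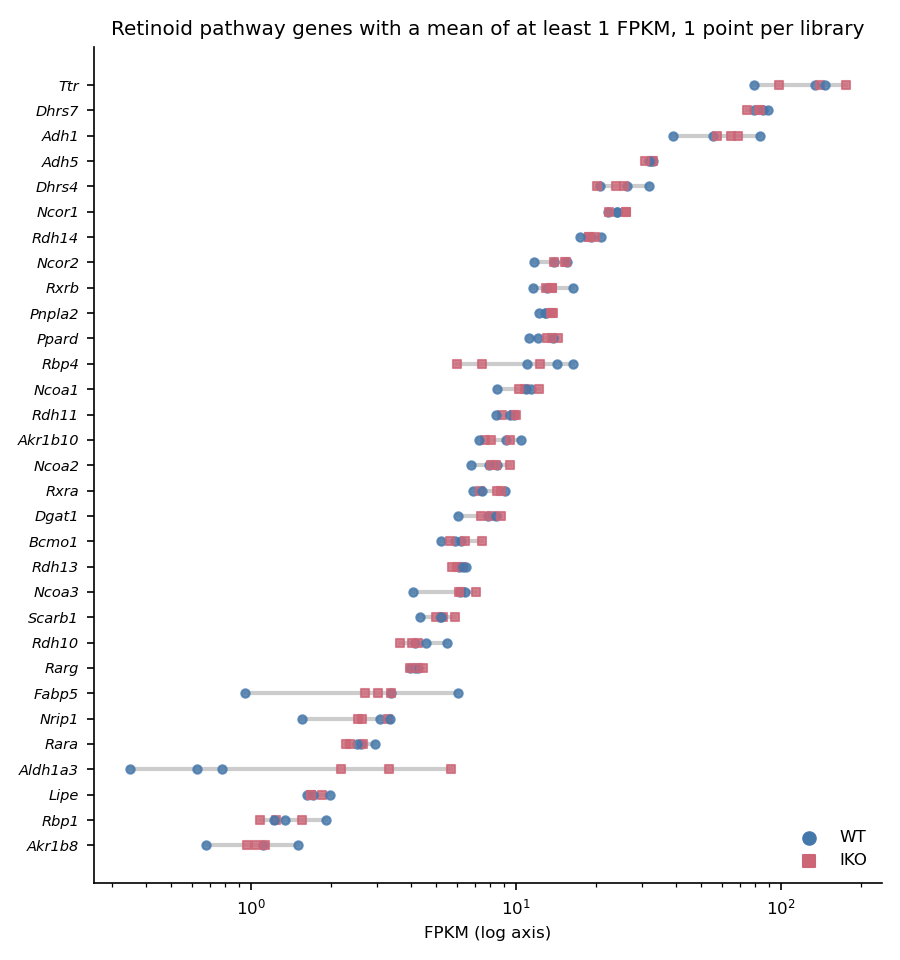
FPKM (log axis) of the 31 retinoid pathway genes that averaged 1 FPKM or more, 1 point for each library, with circles for WT and squares for IKO and grey lines from the lowest to the highest. Aldh1a3 spans 0.348 to 5.70 FPKM with its genotypes apart, while Rarg spans 3.99 to 4.44 FPKM. The genotypes of Pnpla2 are also apart, over a narrow range (12.3 to 13.0 FPKM in WT and 13.6 to 13.8 FPKM in IKO).

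The 5 genes whose profile was most like that of Aldh1a3 were ranked by Pearson's r of log2(FPKM + 1) over the 6 libraries. They were taken among 750 genes that averaged 1 FPKM or more, above 0 in every library and spanning at least 1 on the log2 scale. Icam1, a cell adhesion molecule, led with r = 0.859 and had 1.45, 1.16 and 1.71 FPKM in WT libraries by stage, beside 1.73, 2.20 and 3.61 FPKM in IKO libraries. Snora17, a small nucleolar RNA (r = 0.832), Serinc2, a serine incorporator family member (r = 0.811), Cfb, complement factor B (r = 0.810), and Il4i1, a secreted L-amino acid oxidase (r = 0.743), followed. Cfb was at 10.5 FPKM in the multiparous IKO library and at 4.33 to 6.64 FPKM elsewhere. These values share 6 libraries and were ranked from many genes, so they are a description.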

How the data were processed

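The authors deposited 1 table of FPKM values, 1 column per library, with 23845 rows that hold values. Per the labels' protocols, RNA went into directional poly-A libraries read as 100-base paired ends. Mapping and quantification named TopHat, Cufflinks and Cuffdiff and the build mm10, per the submitters' processing notes, and versions are not given in the sources used here. FPKM depends on the transcript models, on how reads shared by gene copies were split and on the summed signal of each library.

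Symbols at several loci (758 rows) were left out. Log2(FPKM + 1) of 11131 genes that averaged 1 FPKM or more was fitted with limma 3.58.1 (R 4.3.3), with additive genotype and stage terms, trended empirical Bayes moderation and Benjamini-Hochberg adjustment at 0.05. Without a test, 7 library pairs were compared, leaving out genes at 0 in either. With 1 library per group, limma p-values rest on departures from the additive fit and not on a spread between replicates. These departures mix library spread with genotype differences that are unequal across stages. Whether libraries came from separate animals is not stated, so the library spread may be technical. Relative depth came from the steps of genes below 0.2 FPKM (227 to 417 genes per library, SD of log2 0.00413 to 0.0117), and the value of 1 fragment from transcript lengths less 195 bases. Scaled fragments came to 48300000 to 64000000 per library. The length fit was within 10% for 70.9% of 175 low genes, so fragments of Aldh1a3, Rara and Rarg are approximate. Those of the other 6 genes lay within 0.298 of a whole number. Intervals are exact binomial (Clopper-Pearson). The fit was tested on simulated data. These had the same genotype difference at every stage and no library that stood apart, so the test does not give the power in these libraries.

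The members and lists were chosen with earlier results of these data known. Named are all 9 genes, Foxo1, list genes past 2-fold at 5 FPKM in a pair or highest in their list, and the 5 most like Aldh1a3. The fragment estimates, their intervals, the non-overlap of 3- and 12-month libraries and the list count without 1 library were chosen after seeing the data. Alternatives were the pseudocount, filters, rescaling and leaving out each library.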

Additional observations from a re-analysis of the deposited data

How the results depend on the processing

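The genotype difference of Aldh1a3 stayed higher in IKO under every alternative run, at 1.12 to 2.44 (log2), with adjusted p up to 0.924 (limma). With 1 library left out at a time it was 1.12 to 1.80, and it passed the threshold only without the 3-month WT or the 3-month IKO library (1.80). Leaving out either library of a stage takes this difference from the other stages alone. The fits without the WT or the IKO library of a stage therefore give the same value and are not separate results. At a mean of at least 5 FPKM Aldh1a3 was not in the fit. The fits without 1 library have 1 residual degree of freedom, and those without another library gave adjusted p of 0.106 to 0.315. The difference of means in the permutation test was 1.24 to 1.77 with 1 library left out. At a pseudocount of 0.1, the 3-month Aldh1a3 ratio was 1.66 (log2) and past 2-fold, and so were Crabp1 at 3 months (1.23), Crabp1 with parity (-1.61 in WT, -1.70 in IKO) and Aldh1a1 with age in WT (-1.06). Rescaled by the median ratio, Crabp1 with age in IKO was at 0.995, just short of 2-fold. Of 165 alternative values of the 9 genes' pair ratios, 9 changed sign, all of ratios at most 0.096 in size. The count of genes called for genotype was 1 at a pseudocount of 0.1 and 2 to 9 with 1 library left out. For age it was 0 without genes listed at 0, and 17 to 6039 with 1 library left out. For parity it was 0 with no filter, 0 at a mean of at least 5 FPKM, 0 without genes listed at 0, 1 when rescaled without the 20 highest genes, and 20 to 6319 with 1 library left out. At a floor of 1 FPKM, 34 genes were past 2-fold with age in IKO (21 at 5 FPKM) and 70 with parity in IKO (40 at 5 FPKM). Without the 12-month nulliparous WT library, 941 genes had IKO above WT (365 with it) and 751 below (258 with it). Rescaling without the 20 highest genes moved the 12-month nulliparous genotype split from 54 higher and 270 lower to 142 and 156, the WT age split from 292 and 56 to 152 and 138, and the WT parity split from 109 and 300 to 203 and 180. The causes were not tested. WT and IKO are matched by stage through the stage term of the limma fit, and the labels carry no replicate numbers for another block. Fragment numbers limit Aldh1a2, Aldh1a7, Crabp2 and Rarb.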
